A study of Mus musculus with 40 samples.

Results

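The immediate-early response genes described here are 10 genes of the mouse, Fos, Fosb, Jun, Junb, Egr1, Atf3, Ier2, Dusp1, Zfp36 and Nr4a1, picked by their symbol from the 14318 genes measured by RNA-sequencing. All 10 were found in the table and had reads in every tumor, from 25 reads for Fosb to 6739 for Junb at the extremes, so that none was lost to a filter on low values. Primary tumors had grown in the mammary ducts of WT female BALB/c mice from 4T1-luc or 66cl4-luc cells, a pair of luciferase-tagged mouse mammary tumor cell lines that model triple-negative breast cancer, and were collected at 5 w p.i. For each line, tumors were left untreated or treated with anti-PD-1, with chitin or with chitin + anti-PD-1 (called the combination here). Chitin, a polysaccharide given as particles that bind chitinase-like proteins, was injected i.p. at 1 mg per mouse, and the antibody that blocks the immune checkpoint PD-1 at 200 µg per mouse. Per the paper, both were given in repeated injections until 5 w p.i., the antibody weekly. The mice were lactating mothers, inoculated after their pups had been weaned. Of untreated 4T1 tumors there were 4 (tumors 1, 2, 4 and 5) and of each other group 5, giving 19 4T1 and 20 66cl4 tumors. Every mouse carried cells of a single line, and the labels name no control antibody or vehicle for untreated mice.

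Immediate-early genes are transcribed within minutes of a stimulus such as a growth factor, a cytokine or cell stress, before any new protein is needed. Kinase cascades, above all the MAP kinases, act on transcription factors already bound at their promoters, among them SRF at the CArG box and CREB at the cyclic AMP response element. Many of the products are transcription factors themselves, while others dephosphorylate the kinases or destabilize the new transcripts, so that the response is short. In tissue, they are also known to respond to handling of the sample, and how long each tumor waited before it was frozen is not given in the sources used here.

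Levels are given as normalized counts, that is the reads of a gene over its tumor's size factor. Differences are given on the deposited log2-like scale of a variance stabilizing transformation (VST), on which 1 unit is close to a doubling for abundant genes and more than that for scarce genes. The tumors had between 5105898 and 14800352 reads in genes, with a median of 6590274. Within groups, log2 reads had r = 0.17 (19 4T1 tumors) and −0.18 (20 66cl4 tumors) with the members' mean deviation from their group, given as a description. These values do not cover depth between groups. Median reads of untreated, anti-PD-1, chitin and combination tumors were 6295440, 6164483, 8759930 and 6504793 in 4T1. In 66cl4 they were 6064018, 6166518, 10250227 and 8985408. The part of depth in the treatment comparisons and in the spread of each group was not tested. Per length of exon, Junb stood highest in 4T1 tumors with 2000.4 ± 494 normalized counts per kb (SD, n = 19), followed by Jun at 522 ± 182 and Ier2 at 414 ± 87.2. In 66cl4 tumors, Jun at 602 ± 77.9 and Junb at 582 ± 87.8 per kb (SD, n = 20) lay within each other's spread, with Dusp1 next at 398 ± 190.1. Fosb was the scarcest member in both models, at 16.9 ± 7.17 and 17.5 ± 9.42 per kb.

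The 250 bases upstream of the start are shown for Fos and Zfp36, whose values moved together between tumors, and for Junb and Dusp1, which differed most between the models. They were taken from RefSeq (GRCm38.p6, the build of mm10) and are printed 5′ to 3′ on the strand of the gene, in lower case, with motif matches in capitals. The stretches are chr12:85473640-85473889 on the plus strand for Fos, and chr7:28379229-28379478, chr8:84978749-84978998 and chr17:26508473-26508722 on the minus strand for Zfp36, Junb and Dusp1.
Fos: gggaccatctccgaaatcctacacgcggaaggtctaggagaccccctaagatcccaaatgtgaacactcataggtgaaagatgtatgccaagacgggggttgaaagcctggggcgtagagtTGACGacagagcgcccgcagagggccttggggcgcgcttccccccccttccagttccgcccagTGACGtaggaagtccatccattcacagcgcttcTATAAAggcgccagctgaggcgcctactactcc
Zfp36: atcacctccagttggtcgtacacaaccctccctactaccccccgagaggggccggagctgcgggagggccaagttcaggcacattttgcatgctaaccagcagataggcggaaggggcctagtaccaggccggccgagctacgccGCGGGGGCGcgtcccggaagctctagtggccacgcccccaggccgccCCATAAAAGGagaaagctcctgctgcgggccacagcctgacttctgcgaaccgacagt
Junb: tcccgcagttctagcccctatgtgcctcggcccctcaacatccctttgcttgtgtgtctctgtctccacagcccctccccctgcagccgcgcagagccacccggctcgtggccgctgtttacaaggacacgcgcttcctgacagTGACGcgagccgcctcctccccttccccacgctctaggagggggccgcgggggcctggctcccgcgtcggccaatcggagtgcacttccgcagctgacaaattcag
Dusp1: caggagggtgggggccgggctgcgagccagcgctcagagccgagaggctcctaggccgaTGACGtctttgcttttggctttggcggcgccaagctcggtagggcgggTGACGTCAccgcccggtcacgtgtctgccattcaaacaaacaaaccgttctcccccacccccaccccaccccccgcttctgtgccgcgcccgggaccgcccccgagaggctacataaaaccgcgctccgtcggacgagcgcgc
The motifs searched on both strands were the CArG box, bound by SRF; TGACG, the core of the cyclic AMP response element, whose full form TGACGTCA holds it on both strands; GCGGGGGCG, bound by Egr proteins; TGANTCA, bound by AP-1; and TATAAA. In Fos, the TGACG cores began 129 and 66 bases before the start and TATAAA 33 bases before it. Zfp36 held a CArG box 58 bases and GCGGGGGCG 105 bases upstream. Dusp1 held TGACGTCA 143 bases upstream and a further TGACG at 191 bases, and Junb held TGACG at 106 bases. The genes span chr12:85473890-85477274 (Fos), chr7:28376784-28379228 (Zfp36), chr8:84976909-84978748 (Junb) and chr17:26505591-26508472 (Dusp1).

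Of 32851 RefSeq promoters of the same length, 17.8% held TGACG, 1.55% TGACGTCA, 1.47% a CArG box, 2.57% GCGGGGGCG, 12.4% TATAAA and 6.75% TGANTCA. Among the 8 members searched, TGACG was found in 6 (Fos, Fosb, Junb, Atf3, Dusp1 and Nr4a1), GCGGGGGCG in 3 (Fosb, Zfp36 and Nr4a1), the CArG box in Zfp36, TATAAA in Fos and TGACGTCA in Dusp1, while TGANTCA matched no member and Jun held none of these motifs. The windows of Fosb (chr7:19310046-19310295) and Nr4a1 (chr15:101266596-101266845) did not lie wholly upstream of the annotated gene. That of Nr4a1 was inside its span (101253902-101274795), and that of Fosb reached into a gene ending at 19310118. A match is a description of the letters, and a window without one says only that they are not in these 250 bases. Ier2 had no entry in the table, and Egr1 was not searched.

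The first question was whether the members changed with treatment. No member passed an adjusted p of 0.05 (limma, adjusted over all 14318 genes) in any of the 10 treatment comparisons within a model, and neither did any other gene, so that the background was 0% in each. In chitin-containing against the other groups, which compares 10 with 9 4T1 tumors, 5 of 10 members had the higher mean and none had an unadjusted p under 0.05, against 1042 of all genes. In 66cl4, with 10 against 10 tumors, 3 of 10 had the higher mean and 1 an unadjusted p under 0.05, against 2238 of all genes. The median member difference was −0.0035 in 4T1 and −0.062 in 66cl4, beside medians over all genes of 0.0040 and 0.0026. limma-voom on the recovered reads gave 0 called genes in both of these comparisons, and an unadjusted p under 0.05 for 1115 and 2130 genes.

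Markers of immune cells also differed in mean in these comparisons, none past the adjusted threshold. In 4T1, 7 of 8 macrophage markers had the lower mean with chitin (median difference −0.58), 6 of them with an unadjusted p under 0.05 (limma), and their summed level ran from 4839 to 21562 normalized counts against 11789 to 30318 in the other groups. All 7 T-cell markers found had the lower mean (median −0.53), each with an unadjusted p under 0.05, at 218 to 1105 against 321 to 1978. In 66cl4, 7 of 8 macrophage markers had the higher mean (median 0.22), 4 of them with an unadjusted p under 0.05, at 34577 to 43123 against 24209.6 to 41186. No marker of these lists was at 0 reads in all tumors of a group. Their part in the members' values was not tested.

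**Figure D1:**
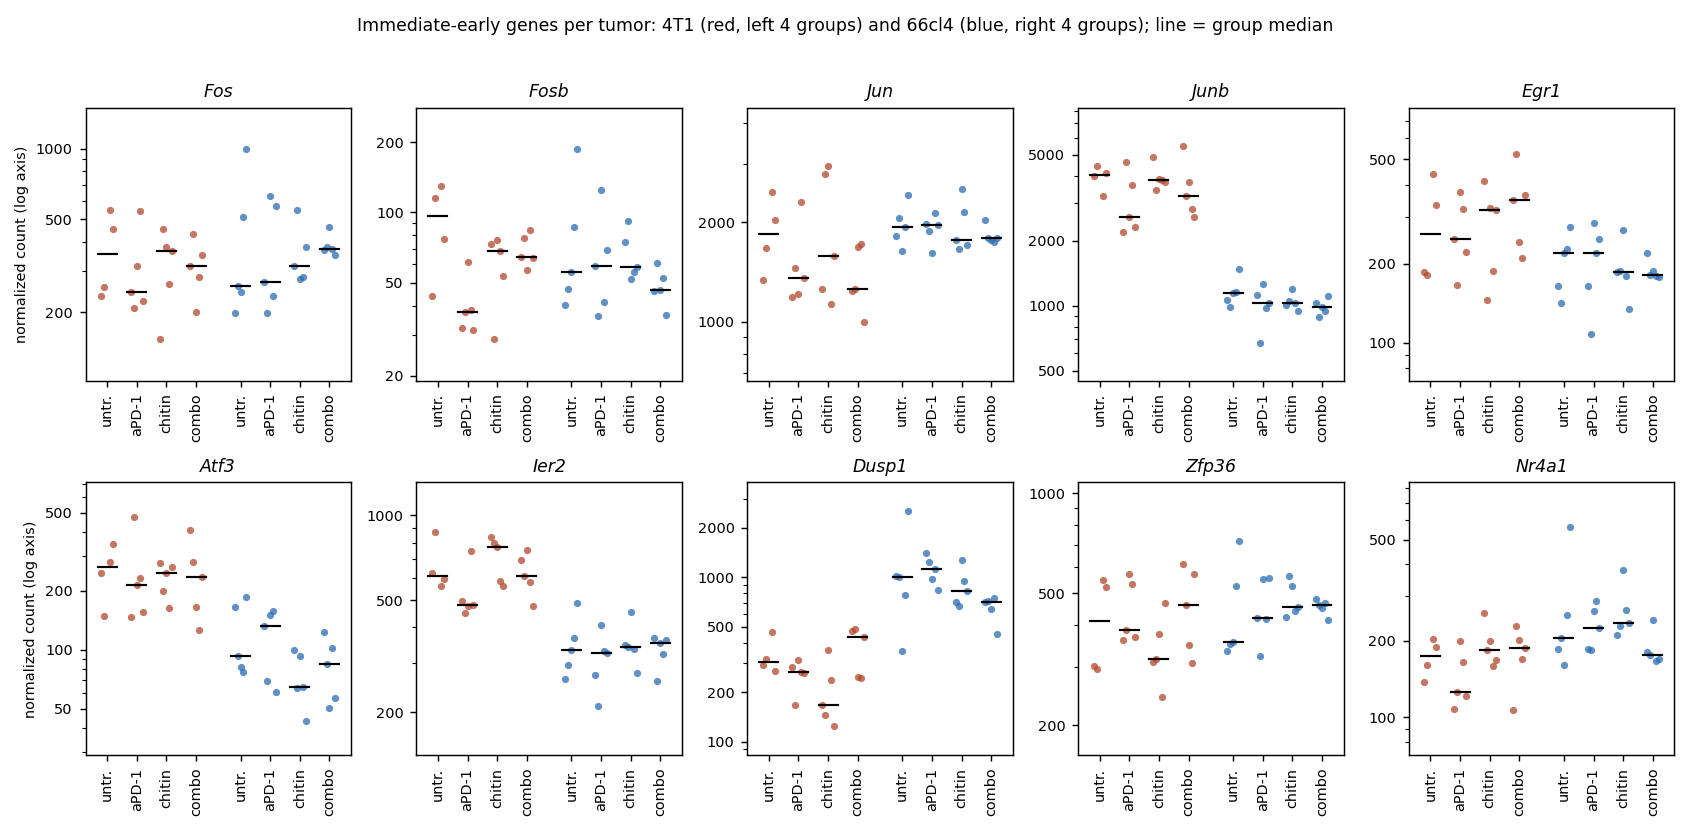
Normalized count of each member in each of the 39 tumors (log axes, which do not start at 0), with 4T1 groups in red on the left and 66cl4 groups in blue on the right of each panel; untr. is untreated, aPD-1 anti-PD-1 and combo chitin + anti-PD-1, and black lines are group medians. Junb is the only member whose models do not overlap, Dusp1 is lower in most 4T1 tumors, and the highest point of the untreated 66cl4 group stands above its group in Fos, Fosb, Dusp1, Zfp36 and Nr4a1.

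Fos, the AP-1 subunit that dimerizes with Jun proteins, had 235, 256, 549 and 453 normalized counts in the untreated 4T1 tumors and 245, 209, 315, 540.0 and 223 in the anti-PD-1-treated ones. With chitin, the values were 154, 452, 379, 266 and 365, and with the combination 315, 431, 201, 283 and 349.8. The ranges of the 4 groups overlapped, with tumor 4 near the top in the untreated and the anti-PD-1-treated group. In 66cl4, untreated tumors had 199, 258, 244, 509 and 994 and anti-PD-1-treated tumors 269.6, 198, 628, 234 and 569, against 314, 545, 279, 282 and 378 with chitin and 369, 380.5, 461, 373 and 352 with the combination. Here the groups without chitin held both the lowest and the highest tumors, and the combination group was narrow. The chitin-containing groups differed from the others by −0.04 in 4T1 (95% interval −0.40 to 0.32) and 0.02 in 66cl4 (−0.40 to 0.44), so that changes of either sign up to about these bounds could not be told from 0.

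Fosb, a second partner of Jun proteins, gave the smallest unadjusted p of any member in a treatment comparison. Untreated 4T1 tumors had 43.7, 116, 129 and 77.3 normalized counts and anti-PD-1-treated ones 32.1, 37.5, 61.4, 38.4 and 31.5. Tumor 1 of the untreated group lay among the anti-PD-1-treated tumors, and the other untreated tumors lay above all of them. The difference was −0.49 (SE 0.137, unadjusted p = 0.00225, limma adjusted p = 0.517), in a comparison where 1273 genes had an unadjusted p under 0.05. With weights estimated for each tumor, it passed the threshold at −0.53 (limma adjusted p = 0.0230) together with Junb at −0.66 (limma adjusted p = 0.0329), in a setting that called 6.7% of all genes. With chitin, the 4T1 values were 73.0, 28.7, 75.9, 68.6 and 53.6, and with the combination 64.6, 77.8, 56.9, 84.4 and 64.1, both inside the range of the untreated tumors apart from chitin tumor 2.

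In this comparison of anti-PD-1-treated with untreated 4T1 tumors, 9 of 10 members had the lower mean and the median member difference was −0.24, while 49.6% of all genes had the higher mean. Markers of other tissue differed alongside, none past the adjusted threshold. All 8 adipocyte markers had the higher mean with anti-PD-1 (median 1.69, 7 with an unadjusted p under 0.05), at summed levels of 221 to 16199.9 normalized counts against 352 to 1544 in untreated tumors. So did all 5 markers of lactating epithelium found (median 1.95, all with an unadjusted p under 0.05, 5.35 to 3181 against 4.73 to 254) and all 7 T-cell markers found (median 0.71, 6 with an unadjusted p under 0.05, 775 to 1978 against 321 to 1138). All 12 hypoxia response genes found had the lower mean (median −0.76), 4 with an unadjusted p under 0.05. The part of these in the members' shift was not tested. Junb, the AP-1 subunit that is often a weaker activator than Jun, had 3986, 4442, 3213 and 4102 normalized counts in untreated and 2198, 4652, 2575, 3608 and 2313 in anti-PD-1-treated 4T1 tumors. Of the treated tumors, 1, 3 and 5 lay below all untreated ones, while tumor 2 lay above them. The difference was −0.39 (SE 0.217, unadjusted p = 0.0861, limma adjusted p = 0.596). In 66cl4, anti-PD-1 gave no member an unadjusted p under 0.05, and the smallest belonged to Junb as well (difference −0.20, SE 0.114, unadjusted p = 0.1001, limma adjusted p = 0.911).

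Dusp1, the phosphatase that inactivates MAP kinases, had 292, 319, 465 and 270.0 normalized counts in untreated tumors, 284, 167, 312, 267 and 262 with anti-PD-1, 167, 145, 363, 239 and 125 with chitin and 474, 484, 249, 246 and 430.3 with the combination in 4T1 tumors. Chitin tumors 1, 2, 4 and 5 lay below all untreated and all combination tumors, and tumor 3 lay within both. Chitin differed from untreated by −0.53 (SE 0.210, unadjusted p = 0.0218, limma adjusted p = 1), and chitin + anti-PD-1 from chitin by 0.63 (SE 0.198, unadjusted p = 0.00506, limma adjusted p = 1.00). The same chitin tumors enter both differences. In the second, all 7 neutrophil markers found had the higher mean with the combination (median 0.76), each with an unadjusted p under 0.05, at summed levels of 895 to 8691 normalized counts against 334 to 1509.85 with chitin alone. All 8 skeletal muscle markers had the higher mean as well (median 0.76), none with an unadjusted p under 0.05, at 272 to 8858 against 107 to 746. In the first, none of the neutrophil and muscle markers had the higher mean with chitin (medians −0.25 and −0.50) and none had an unadjusted p under 0.05. Their part in the Dusp1 differences was not tested. Over both chitin-containing groups, Dusp1 differed by −0.07 in 4T1 (95% interval −0.38 to 0.23).

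In 66cl4, Dusp1 values were 1019, 997, 359, 782 and 2503 in untreated and 1392, 1232, 975.4, 1116 and 833 among those given anti-PD-1. With chitin they were 708, 669, 1276, 942 and 829.5, and 709, 717, 640.0, 748 and 454 with the combination. The untreated group held both the lowest and the highest value of the model. All combination tumors lay below all anti-PD-1-treated tumors. This pair of groups was not tested, and the share of all genes with such a separation was not computed. Muscle RNA differed between these groups too, with summed levels of the 8 muscle markers of 1194 to 3758 normalized counts in combination tumors 3, 4 and 5, 10.9 and 21.2 in combination tumors 1 and 2, and 17.5 to 545 with anti-PD-1. The part of muscle RNA in the Dusp1 values of these groups was not tested. Against chitin alone, all 8 muscle markers had the higher mean with the combination (median 1.07), 5 with an unadjusted p under 0.05. The chitin-containing groups differed from the others by −0.40 (SE 0.201, 95% interval −0.81 to 0.02, unadjusted p = 0.0624, limma adjusted p = 0.351). Without untreated tumor 5 the difference was −0.24, and without untreated tumor 3 it was −0.54, neither past the threshold. Untreated tumor 3 also stood out for muscle RNA: its summed level of these markers was 3259 normalized counts, against 18.8 to 119.8 in the others of its group, and the part of this tissue in the low Dusp1 value was not tested.

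Atf3, a stress-induced partner of the AP-1 family, was the member with an unadjusted p under 0.05 for the chitin-containing 66cl4 groups. Values were 165, 92.8, 81.8, 77.3 and 186 in untreated, 132, 69.1, 149.7, 158 and 60.9 with anti-PD-1, 99.3, 63.6, 92.5, 64.2 and 43.4 with chitin and 123, 84.7, 50.3, 102 and 56.7 with the combination. The groups overlapped, with the highest tumor in the untreated and the lowest in the chitin group. The difference was −0.29 (SE 0.118, 95% interval −0.53 to −0.04, unadjusted p = 0.0246, limma adjusted p = 0.252). In 4T1, the differences furthest from 0 were those of Nr4a1 (0.14) and Ier2 (0.14). The narrowest intervals belonged to Jun in 66cl4 (−0.19 to 0.12) and Nr4a1 in 4T1 (−0.05 to 0.34).

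The effect of chitin was compared between the models. The difference of the chitin effects, 4T1 minus 66cl4, passed the threshold for 0 of 10 members, where the background was 0.0978% (14 of 14318 genes). No member had an unadjusted p under 0.05 here, against 1887 of all genes, and limma-voom also called 0 members. The smallest unadjusted p was that of Nr4a1 (difference 0.22, 95% interval −0.11 to 0.56, unadjusted p = 0.187, limma adjusted p = 0.612), and the difference furthest from 0 was that of Dusp1 (0.32, −0.21 to 0.85). Among the remaining comparisons, the member with the smallest unadjusted p was Atf3 for chitin against untreated 66cl4 (−0.35, SE 0.167, unadjusted p = 0.0471, limma adjusted p = 0.428), Jun for chitin + anti-PD-1 against untreated 4T1 (−0.40, unadjusted p = 0.145, limma adjusted p = 1), Junb for the same in 66cl4 (−0.20, unadjusted p = 0.0912, limma adjusted p = 0.554) and Nr4a1 for chitin + anti-PD-1 against chitin in 66cl4 (−0.32, unadjusted p = 0.0846, limma adjusted p = 1). Comparisons within a model share their untreated or chitin-treated tumors.

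**Figure D2:**
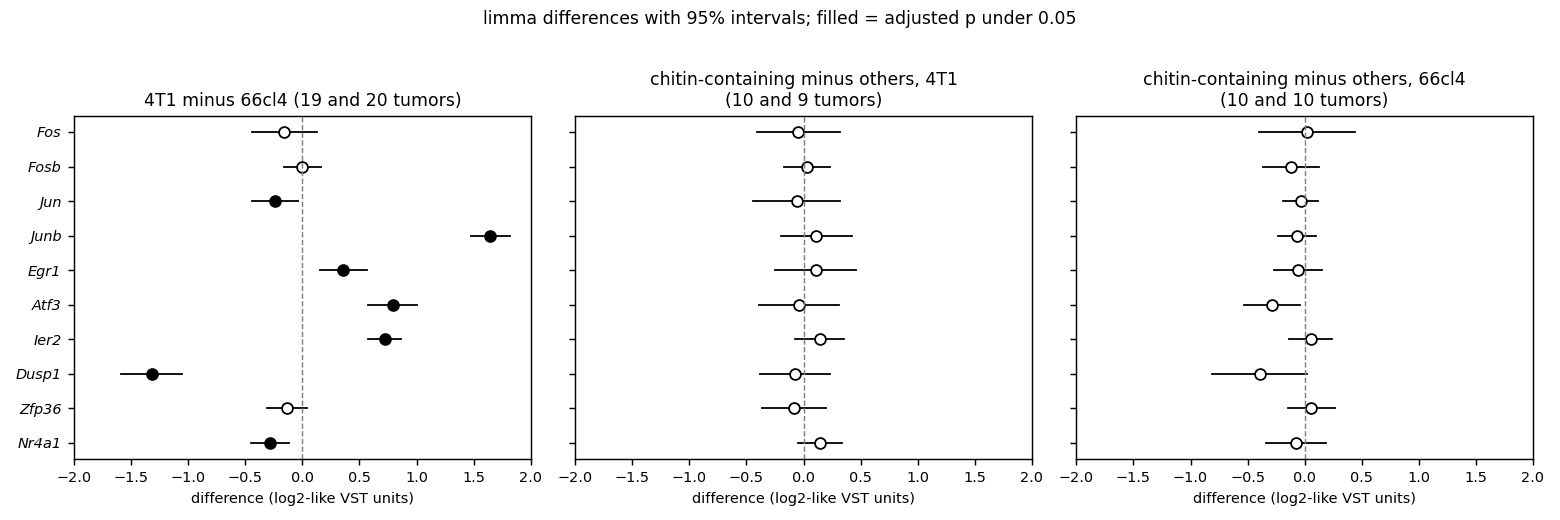
Differences of the 10 members in VST units with 95% intervals from limma, for 4T1 minus 66cl4 over the 4 treatment groups (left), and for chitin-containing minus other groups in 4T1 (middle) and 66cl4 (right); filled points have an adjusted p under 0.05. In the left panel 7 points are filled, from Dusp1 at −1.32 to Junb at 1.65, and in the other panels none is.

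The models differed for most members. Over the 4 treatment groups, 7 of 10 members passed the threshold, 4 of them higher and 3 lower in 4T1, where 78.8% of all genes were called (40.8% higher and 38% lower in 4T1), so that the share of members is near the background. Junb was higher in 4T1, at 3619 ± 893 (SD, n = 19) normalized counts against 1052 ± 159 (SD, n = 20) in 66cl4, a ratio of means of 3.44. The lowest, median and highest of all tumors were 2198, 3752 and 5512 in 4T1 and 674, 1027 and 1476 in 66cl4. Each of the 19 4T1 tumors lay above each of the 20 66cl4 tumors, a separation that 17.9% of all genes showed in either direction and 9.87% with 4T1 higher. The limma difference was 1.65 (SE 0.0851, adjusted p = 8.62e-19). In untreated 66cl4 tumors the values were 1061, 989, 1140.4, 1155 and 1476, and the other 66cl4 groups covered a similar range, down to 674 in anti-PD-1-treated tumor 2.

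Atf3 was higher in 4T1 with 242 ± 91.5 (SD, n = 19) against 97.6 ± 41.4 (SD, n = 20), a ratio of 2.48 (limma difference 0.79, SE 0.105, adjusted p = 2.48e-08). In 4T1 its values were 247, 149, 279 and 345 in untreated, 146, 475, 212, 232 and 155 with anti-PD-1, 277, 199, 247, 164 and 263 with chitin and 408, 281, 166, 126 and 234 with the combination. Of these 19 tumors, 13 lay above every 66cl4 tumor. Ier2, a short-lived nuclear protein induced with the AP-1 genes, was 1.88 times higher in 4T1 (limma difference 0.72, SE 0.0703, adjusted p = 2.36e-11), with lowest, median and highest values of 451, 594 and 873 against 211, 333 and 488. Here 15 of 19 4T1 tumors lay above all 66cl4 tumors. Egr1, the zinc finger factor induced through SRF, was 1.48 times higher (limma difference 0.36, SE 0.101, adjusted p = 0.00181), with 145, 320.3 and 522 in 4T1 and 108, 187 and 285 in 66cl4, and 10 4T1 tumors lay above all 66cl4 tumors. For Atf3, Ier2 and Egr1, the share of all genes with as many 4T1 tumors above all 66cl4 tumors was not computed.

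Dusp1 differed in the other direction, with 293 ± 109 (SD, n = 19) normalized counts in 4T1 and 945 ± 451 (SD, n = 20) in 66cl4, 3.23 times higher in 66cl4 (limma difference −1.32, SE 0.131, adjusted p = 3.73e-11). The values ran from 124.6 to 484 in 4T1, and 14 of these tumors lay below every 66cl4 tumor. The share of all genes with as many tumors apart was not computed. Complete separation with 66cl4 higher, which Dusp1 did not show, was seen for 7.98% of all genes. The overlap rests on untreated 66cl4 tumor 3 at 359, and combination 66cl4 tumor 5 at 454. Nr4a1, an orphan nuclear receptor induced in stimulated cells, was 1.38 times higher in 66cl4 (limma difference −0.29, SE 0.0825, adjusted p = 0.00221), with 106, 169.7 and 257 in 4T1 and 161, 217 and 561 in 66cl4. Jun was 1.15 times higher in 66cl4 (limma difference −0.24, SE 0.0993, adjusted p = 0.0300), with 996, 1453 and 2959 in 4T1 and 1609, 1846 and 2529.6 in 66cl4, so that the 4T1 tumors enclosed the whole 66cl4 range. This call for Jun was lost when any 1 of 5 tumors was left out, namely untreated 4T1 tumor 1, chitin-treated 4T1 tumors 1 and 4, combination 4T1 tumor 5 or chitin-treated 66cl4 tumor 3, with limma adjusted p between 0.0503 and 0.0640.

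The remaining members did not pass. Fos differed by −0.16 (SE 0.140, adjusted p = 0.300), Zfp36, the protein that binds AU-rich elements and speeds the decay of cytokine and immediate-early transcripts, by −0.13 (SE 0.0852, adjusted p = 0.149), and Fosb by −0.00099 (SE 0.0792, adjusted p = 0.991), all by limma. The 95% interval for Fosb was −0.16 to 0.16 and that for Zfp36 −0.31 to 0.04. In untreated tumors alone, 4 of 10 members were called where the background was 55.8%: Junb (1.65), Ier2 (0.75) and Atf3 (0.69) higher and Dusp1 (−1.26) lower in 4T1, with limma adjusted p of 1.14e-09, 5.90e-05, 0.00850 and 0.000221. Model and cell line are the same thing in this design, and 1 line stands for each.

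Other genes of the pathway were divided between the models in the same comparison. Of 15 other AP-1 family genes, 5 were higher and 8 lower in 4T1, with Batf2 at 0.80 and Maf at −1.73, Jdp2 at −1.10 and Fosl1 at −0.94. Of 9 relatives in the Egr, Nr4a and Ier families, 3 were higher, led by Ier3 (0.99) and Ier5 (0.60), and 4 lower, led by Nr4a2 (−0.52) and Nab2 (−0.50), a corepressor of Egr proteins. Of 28 other immediate-early genes, 12 were higher and 12 lower, with Ccn2 at 1.57, Errfi1 at 1.14, Klf4 at −1.44 and Klf2 at −1.300. The medians of these lists were −0.13, 0.061 and 0.024, beside 0.015 over all genes.

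Among 12 genes that feed back on MAP kinases, 7 were higher in 4T1 and 3 lower, with a median of 0.35. Dusp4, at 578 ± 217 normalized counts in 4T1 and 63.9 ± 21.7 in 66cl4 (SD, n = 19 and 20), differed by 2.01, Dusp6 by 1.10 and Dusp5 by 0.90, while Spry1 was lower by a difference of −0.94. Dusp4, Dusp5 and Dusp6 also dephosphorylate MAP kinases, Dusp5 and Dusp6 selectively ERK, and differed with the opposite sign to Dusp1. Of 8 further targets of MAP kinase signalling, 6 were higher and 1 lower in 4T1, with Etv4 at 1.81 and Phlda1 at 1.301 and the cyclin gene Ccnd1 at −0.55. Of 9 genes for SRF and its partners, 2 were higher and 5 lower, led by Ep300 (−0.49) and Elk3 (0.45). Of 10 genes of the Zfp36 family and their AU-rich targets, 5 were higher and 3 lower, with Il1b at 1.49 and Vegfa at 1.28. Of 12 heat shock genes, 4 were higher and 2 lower, and of 12 hypoxia response genes, 5 were higher and none lower, led by Egln3 at 3.15.

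The makeup of the tumors moved with the same contrast. All 8 epithelial markers were higher in 4T1, and their summed level ran from 15439.9 to 58146 normalized counts in 4T1 and from 3399 to 6158 in 66cl4. All 7 neutrophil markers found were higher in 4T1 (333.8 to 8691 against 230.4 to 454), 7 of 8 macrophage markers were lower (4839 to 30318 against 24209.6 to 43123), and 5 of 7 T-cell markers were higher (218 to 1978 against 79.1 to 342). Of 8 fibroblast markers 3 were higher and 3 lower (4221 to 119223 against 5968 to 12805), and of 8 endothelial markers 6 were higher (982 to 6219 against 1503 to 2348). Muscle, adipocyte and lactating epithelium markers were higher for 7 of 8, 7 of 8 and 5 of 5, at up to 8858, 16199.9 and 3181 normalized counts in 4T1 and 3758, 2828 and 618 in 66cl4. No marker found was at 0 reads in all tumors of a model. Their part in the members' differences was not tested. In bulk tumor RNA, fewer cells of a type and less RNA per cell cannot be told apart.

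The members were variable between tumors of the same group. Their median SD within groups was larger in 4T1 (0.34) than in 66cl4 (0.27), while relative to all genes of the same model they ranked higher in 66cl4. The SD within groups was 0.50 for both Fos and Dusp1 in 66cl4, larger than that of 99.0% of all genes, and that of the 10 members ranged from the percentile 84.1 (Jun) upwards. The median over all genes was 0.11 in 66cl4. In 4T1, where the median gene had an SD of 0.19, the members lay between the percentiles 58.1 (Nr4a1) and 91.2 (Jun). The median SD of the members by group was, in the order untreated, anti-PD-1, chitin and combination, 0.36, 0.28, 0.22 and 0.11 in 66cl4, and 9 of 10 members had their smallest SD in the combination group. The median SD over all genes was 0.12, 0.12, 0.11 and 0.089 in these groups. In 4T1 the order was another, with 0.34, 0.29, 0.24 and 0.32. Without untreated tumor 5, a setting chosen after the values were seen, the median SD of the untreated group was 0.21, below those of the anti-PD-1 and chitin groups, and 8 of 10 members had their smallest SD in the combination group. That count was 5 without chitin-treated tumor 3 and between 7 and 9 without any other 66cl4 tumor. No test of spread was made, and the order in 66cl4 is a description of 5 tumors a group.

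A single tumor carried much of the spread in 66cl4. Untreated 66cl4 tumor 5 was the highest of its group for all 10 members and the highest of all 66cl4 tumors for 8 of them, with a mean deviation of 0.64 from its group. Dusp1 reached 2503 normalized counts there against 359 to 1019 in the others of the group, Fos 994 against 199.0 to 509, and Nr4a1 561 against 160.9 to 254. Zfp36 reached 718 against 335 to 527. The summed level of the 28 other immediate-early genes was also highest in this tumor, at 28163 against 18822 to 24016 in the others of the group. It had 5732583 reads, the fewest of its group. Its summed levels of epithelial (4459), macrophage (31596), T-cell (178.8), neutrophil (293.6) and muscle markers (25.4) lay inside the range of the other untreated 66cl4 tumors, and so did those of fibroblasts (11189), while those of endothelium (2348 against 1778 to 2111), adipocytes (694 against 400.1 to 630.5) and lactating epithelium (98.8 against 16.3 to 94.1) were the highest of the group. Their part in the members' values was not tested. No 4T1 tumor was highest of its group for all members: untreated tumor 4 was so for 7, with a mean deviation of 0.23, and anti-PD-1-treated tumor 4 had the largest mean deviation, 0.27.

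**Figure D3:**
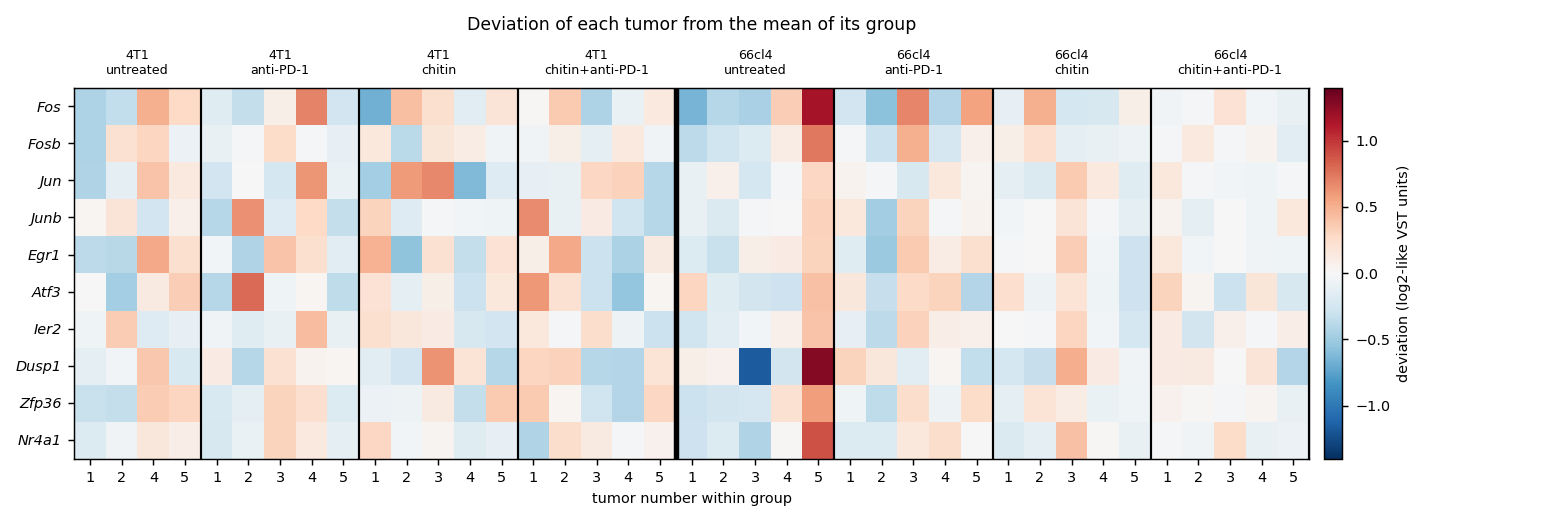
Deviation of each tumor from the mean of its group in VST units, for the 10 members (rows) in 39 tumors (columns, numbered within their group), with red above and blue below the mean. Untreated 66cl4 tumor 5 is red in every row, the chitin + anti-PD-1 group of 66cl4 is pale in most cells, apart from Dusp1 in tumor 5, and red cells in 4T1 lie in different tumors for different members.

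Whether the members rose and fell together was examined on these deviations, separately in each model. In 66cl4 all 45 pairs of members had a correlation above 0 and 25 were above 0.5, with a median r of 0.60 over 20 tumors. In 4T1 31 of 45 were above 0 and 7 above 0.5, with a median of 0.14 over 19 tumors. All members of a tumor share its library, and these values are descriptions. Correlations between pairs of other genes were not computed, so how far these counts are particular to the members is not known. Without untreated 66cl4 tumor 5, a setting chosen after the values were seen, the median in 66cl4 was 0.35, with 34 pairs above 0 and 16 above 0.5. Leaving out any other tumor gave medians from 0.54 to 0.61 in 66cl4 and from 0.081 to 0.22 in 4T1.

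Fos was related to each of the other members in both models, which gave 18 relations. In 66cl4, Fos rose with Zfp36 (r = 0.929, permutation p = 0.00029, adjusted 0.00261; rho = 0.868, permutation p = 0.00081, adjusted 0.00729) and with Fosb (r = 0.923, permutation p = 5.00e-05, adjusted 0.0009; rho = 0.892, permutation p = 0.00016, adjusted 0.00288). Leaving out the tumors with the most extreme Fos values, 2 in each case, gave r = 0.872 and 0.848, and leaving out untreated tumor 5 gave 0.875 and 0.863. With Ier2, Nr4a1, Junb and Egr1, r was between 0.598 and 0.631 with adjusted p from 0.0678 to 0.0864 in the permutation test. Without untreated tumor 5, r was lower for each of them, at 0.461, 0.234, 0.466 and 0.518 in this order. Fos and Dusp1 had r = 0.279 and Fos and Jun r = 0.0381, with adjusted p of 0.642 and 0.895 by permutation, and both turned negative without untreated tumor 5, at −0.346 and −0.383. So did Fos and Atf3, from r = 0.0637 (permutation test, adjusted p = 0.895) to −0.272.

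The values behind these relations are as follows. Zfp36 had 335, 351, 357, 527 and 718 normalized counts in untreated, 422, 323, 550.1, 418 and 556 with anti-PD-1, 424, 562, 525, 442 and 456 with chitin and 481, 459.5, 449.9, 468 and 416 with the combination in 66cl4 tumors, in the order of tumor numbers used for Fos above. Fosb had 40.0, 47.0, 55.4, 86.3 and 187, 59.0, 36.0, 125, 41.3 and 69.2, 74.4, 91.8, 52.0, 55.7 and 58.3, and 46.2, 61.1, 46.8, 52.4 and 36.5 in the same groups. In the untreated group tumors 4 and 5, in the anti-PD-1-treated group tumors 3 and 5, and in the chitin-treated group tumor 2 were the highest for Fos, Fosb and Zfp36 alike. In the combination group, the highest was tumor 3 for Fos, tumor 2 for Fosb and tumor 1 for Zfp36.

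In 4T1, 1 of 9 relations passed, that of Fos with Zfp36 (r = 0.660, permutation p = 0.0081, adjusted 0.0486; r = 0.707 without the 2 tumors with the most extreme Fos values), and it did so by r alone, since rho was 0.625 with a permutation p of 0.0163, adjusted 0.0976. The call was lost on leaving out any 1 of 14 of the 19 tumors (all 4 untreated, anti-PD-1 tumors 1, 2, 4 and 5, chitin tumors 3, 4 and 5, and combination tumors 3, 4 and 5), where r was between 0.610 and 0.690. Fos and Jun, partners in the AP-1 dimer, had r = 0.579 (permutation p = 0.0226, adjusted 0.0678; rho = 0.544, permutation p = 0.0327, adjusted 0.132). Fos and Fosb, the closest pair of 66cl4 after Fos and Zfp36, had r = 0.101 in 4T1 (permutation p = 0.733, adjusted 0.879). The difference of these correlations between the models was not tested.

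Among the other pairs, Egr1 and Ier2 (r = 0.898), Junb and Ier2 (0.863) and Junb and Egr1 (0.825) moved together in 66cl4, and kept 0.892, 0.822 and 0.798 without untreated tumor 5. Dusp1 and Jun had 0.709 (0.61 without that tumor). Without it, Dusp1 had negative values with Fos (−0.346) and Fosb (−0.294), and Jun with Fos (−0.383) and Fosb (−0.481). Dusp1 was then also negative with Egr1 (−0.237), Junb (−0.187), Ier2 (−0.187) and Zfp36 (−0.127), but not with Atf3 (0.401) and Nr4a1 (0.351). Atf3 was negative with Fos (−0.272) and Zfp36 (−0.024), and Jun with Zfp36 (−0.0072). In 4T1, the pairs above were not those with the highest values, which were Egr1 and Zfp36 (0.724), Fos and Zfp36 (0.660), and Junb and Atf3 (0.647). Junb and Fos had the lowest value of 4T1, −0.226.

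**Figure D4:**
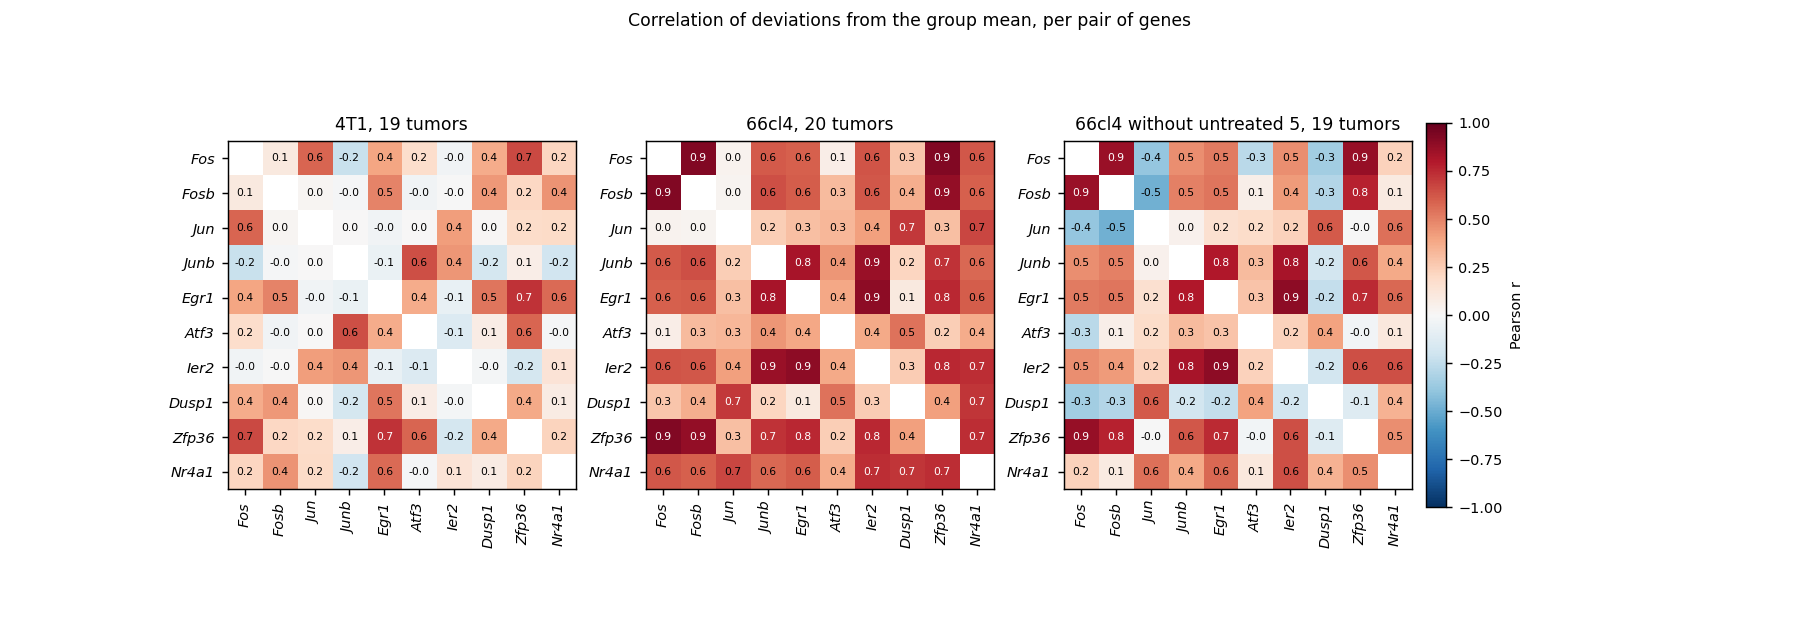
Pearson correlation of the deviations from the group mean for each pair of members, in 4T1 (19 tumors), in 66cl4 (20 tumors) and in 66cl4 without untreated tumor 5 (19 tumors), with red above and blue below 0. The middle panel has no value below 0. In the right panel, high values remain among Fos, Fosb and Zfp36 and among Junb, Egr1 and Ier2. Zfp36 also keeps high values with Egr1 (0.75), Ier2 (0.64) and Junb (0.62). Jun and Dusp1 turn negative with Fos and Fosb, and Dusp1 also with Egr1, Junb, Ier2 and Zfp36. Atf3 turns negative with Fos, and Atf3 and Jun lie just below 0 with Zfp36.

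The genes most like the members were sought by the correlation of their deviation with the mean deviation of the 10 members over all 39 tumors. The highest were Cxcr4, a chemokine receptor (r = 0.697, with 0.675 in 4T1 and 0.788 in 66cl4), Ccn1, a matrix protein itself induced by growth factors (0.670, with 0.612 and 0.767), and Nlrp3, the inflammasome sensor (0.657, with 0.743 and 0.608). Without untreated 66cl4 tumor 5 their r in 66cl4 was 0.417, 0.588 and 0.576. Next came Xylt1 (0.610), Klf6 (0.609), Slc35b1 (0.605), Clec4d (0.598), Mir692-2 (0.591), Atp6v0d2 (0.590) and Gla (0.589). In this order, their r was 0.690, 0.802, 0.390, 0.630, 0.626, 0.643 and 0.468 in 4T1. In 66cl4 it was 0.559, 0.476, 0.804, 0.596, 0.571, 0.654 and 0.802. Without untreated 66cl4 tumor 5 the latter values were 0.379, 0.281, 0.754, 0.261, 0.391, 0.458 and 0.646. Reads of Mir692-2 are uncertain, since this small gene lies within other genes. In all, 50 of 14308 other genes had r above 0.5 and the median was 0.0096.

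Of the lists, the 28 other immediate-early genes had a median r of 0.27 with the members and 3 genes above 0.5, led by Ccn1, and the 10 genes of the Zfp36 family and its targets had 0.25 and 2 genes above 0.5, led by Il1b at 0.533. The 9 relatives in the Egr, Nr4a and Ier families had a median of 0.20, led by Egr3 (0.437), and the 15 other AP-1 genes 0.092, led by Fosl2 (0.474). The feedback genes of MAP kinases had −0.016, SRF and its partners 0.12, with Srf itself at 0.425, MAP kinase targets −0.080, heat shock genes 0.15 and hypoxia response genes 0.15. Among the marker lists, the median was 0.29 for endothelium, 0.20 for epithelium, 0.10 for lactating epithelium, 0.093 for fibroblasts, 0.064 for neutrophils, 0.024 for T cells, 0.021 for muscle, 0.016 for macrophages and −0.080 for adipocytes, with no gene of any marker list above 0.5. These are descriptions over tumors that share their libraries with the members.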

How the data were processed

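RNA-sequencing values of 39 primary tumors were used, grouped by cell line and treatment as the labels give them. Per the study's methods and the submitters' processing notes, reads were aligned to mm10 with HISAT2, counted per gene with summarizeOverlaps using strand, filtered for low counts and passed through a variance stabilizing transformation. The log2-like VST values deposited by the authors were analysed as they are, so that a count test was not the primary one. The lowest value, 6.05, stands for a count of 0, and inverting the transformation with it gave whole reads for 100% of values within 0.001 reads. These reads gave depth, normalized counts and the limma-voom alternative. The number of columns of other samples left out was 0.

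Differences were tested with limma 3.58.1 in R 4.3.3 (mean-variance trend) over all 14318 genes with Benjamini-Hochberg adjustment, each model in its own fit, and both models in 1 fit for comparisons between them. Labels give separate tumors per group and nothing on batches. Relations of Fos with the other members were tested by two-sided permutation tests (100000 resamples) on deviations from group means, adjusted over 18 relations. The same tumor numbers occur in each group. Between tumors with the same number, the median r of the deviations was −0.017 over 27 pairs of 4T1 tumors (−0.39 to 0.45). In 66cl4 it was 0.026 over 30 pairs (−0.30 to 0.54). Pairs with other numbers had medians of 0.0040 and −0.014. Whether the numbers mark anything shared was not tested. The limma procedure was also run on simulated counts with known changes, which checked the sign of called differences and is not used as support here. Promoters were searched in Python 3.11.15.

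The 10 members and the gene lists were chosen with earlier results of these data known. Besides the members, the text names the 10 genes most similar to their mean deviation and, per list, up to 4 called genes with the largest difference, and other genes named were chosen after their values were seen. Reads are not independent molecules, and SDs between tumors were used as the measure of precision. The results were recomputed with array weights, with a replicate block, with quantile normalization or median centring, with limma-voom or log2 values, without a trend, without the 25% of genes lowest in mean, with other sets of groups in the fit, and without each tumor in turn. Untreated 4T1 tumor 3 had no column of values and was not analysed here. Per the paper, it was an outlier with degraded RNA and was left out.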

Additional observations from a re-analysis of the deposited data

Results flagged for a closer look

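Within each of the 8 groups, the highest and the lowest tumor were compared with the nearest of the others, and 6 of 80 pairs of member and group had a tumor that stood apart by Dixon's test; chance flags about 1 in 20 such groups. In each of them it was the highest tumor. In the chitin + anti-PD-1-treated 66cl4 group, Fos was 9.19 in tumor 3 on the log2-like scale (others 8.89 to 8.98) and Nr4a1 8.50 in the same tumor (8.15 to 8.22). In tumor 1 of that group, Jun was 11.08 (10.87 to 10.91) and Egr1 8.41 (8.21 to 8.26). In the anti-PD-1-treated 4T1 group, Fosb was 7.39 in tumor 3 (7.03 to 7.12) and Ier2 9.77 in tumor 4 (9.17 to 9.29). The narrow spread of the 66cl4 combination group makes small gaps stand out: its median SD over the members was 0.11.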

How the results depend on the processing

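Counts of genes past the threshold in treatment comparisons, 0 in each as reported, depended on single settings, while members were called in no such comparison except with array weights. Array weights gave 960 genes and 2 members for anti-PD-1 against untreated 4T1 tumors, 297 and 185 genes for the chitin-containing groups of 4T1 and 66cl4, and 1004 in place of 14 genes for the difference of the chitin effects between models. Both models in 1 fit gave 58 genes (4T1) and 1 gene (66cl4) for the chitin-containing groups. Without the 25% of genes lowest in mean there were 6 genes for the chitin-containing 66cl4 groups and 8 for the difference between models, which quantile normalization raised to 39. With only the groups compared in the fit, 1 gene passed for the combination against chitin in 66cl4.

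With the tumor number as a replicate block, 16 genes passed for the chitin-containing 66cl4 groups, 2 for chitin and 7 for the combination against untreated 66cl4 tumors, 1 for the combination against untreated 4T1 tumors and 104 for the difference between models; each tumor correlated best with its own number in 3 of 19 4T1 and 8 of 20 66cl4 cases, and no call of a member changed with the block. The causes of these shifts were not tested.

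Leaving out each tumor in turn gave 0 to 269 genes for the chitin-containing 66cl4 groups, with the most without untreated 66cl4 tumor 3, 0 to 25 for chitin and 0 to 3 for the combination against untreated 66cl4 tumors, and 0 to 1 for the chitin-containing 4T1 groups. It gave 0 to 80 for anti-PD-1 against untreated 4T1 tumors and 0 to 677 for the difference between models, both highest without anti-PD-1-treated 4T1 tumor 2 (the latter also 282 without combination 4T1 tumor 5, 183 and 81 without chitin-treated 4T1 tumors 2 and 5, 83 without untreated 4T1 tumor 2, 23 to 33 without untreated 66cl4 tumors 3 or 4 or anti-PD-1-treated 66cl4 tumor 4, and 0 without untreated 4T1 tumor 5), and 0 to 2 for the combination against chitin in 4T1. No member was called in any of these.

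Small differences turned sign. With array weights, the chitin-containing 4T1 groups differed by 0.011 for Atf3 and 0.077 for Jun, those of 66cl4 by −0.029 for Fos, and the difference between models was 0.018 for Fos and 0.17 for Jun; Zfp36 passed the threshold between models at −0.22 (limma adjusted p = 0.0174). Fosb between models was 0.0031 with the replicate block and 0.046 with limma-voom. Leaving out tumors in turn gave, for the chitin-containing 4T1 groups, −0.12 to 0.062 for Atf3, −0.12 to 0.042 for Fos, −0.042 to 0.081 for Fosb and −0.14 to 0.017 for Jun, and for those of 66cl4, −0.064 to 0.16 for Fos, −0.082 to 0.00015 for Jun and −0.13 to 0.033 for Nr4a1. It gave −0.026 to 0.045 for Fosb between models, and −0.21 to 0.024 for Fos and −0.11 to 0.054 for Jun in the difference of the chitin effects.

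Relations of Fos past the threshold in 4T1, 1 as reported, were 0 with log2 of normalized counts and 2 with quantile normalization, where r was −0.091 with Fosb and 0.043 with Ier2, and 0 to 2 on leaving out tumors. In 66cl4, 2 as reported, there were 4 with quantile normalization and 2 to 6 on leaving out tumors, the most without chitin-treated 66cl4 tumor 3. Leaving out tumors gave r from −0.13 to 0.31 for Fos with Fosb and −0.42 to 0.12 with Ier2 in 4T1, and in 66cl4 −0.38 to 0.20 with Jun, −0.27 to 0.21 with Atf3 and −0.35 to 0.36 with Dusp1. On the log2 scale of normalized counts, the median SD of the members was 0.46 in 4T1 and 0.41 in 66cl4, against 0.34 and 0.27 on the VST scale. Depth limits Fosb most, with 25 to 142 reads a tumor.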

Other observations

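In the chitin-containing groups against the others, no gene of any other list passed the adjusted threshold (limma), and the medians furthest from 0 in 4T1 were those of macrophage (−0.58) and T-cell markers (−0.53). In 66cl4, all 12 hypoxia response genes found had the lower mean in the chitin-containing groups, with a median difference of −0.34, and 7 of them had an unadjusted p under 0.05 (limma). Of 12 heat shock genes, 1 had the higher mean, the median was −0.15 and 8 had an unadjusted p under 0.05. Of the 28 other immediate-early genes, 6 had the higher mean, the median was −0.10 and 9 had an unadjusted p under 0.05. In 4T1, the medians of these lists were 0.086, 0.027 and −0.022, and 0, 0 and 3 of their genes had an unadjusted p under 0.05.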
